A study of Mus musculus with 9 samples.

Results

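The matrilins and the cartilage oligomeric matrix protein, COMP, are 5 genes: Matn1, Matn2, Matn3, Matn4 and Comp. They were chosen by symbol, and all 5 were among the 26202 genes of the deposited table and the 12868 genes tested. Messenger RNA had been sequenced in 9 libraries of ATDC5, a clonal mouse chondrogenic line, with 3 libraries each labelled control, acetate and ethanol. Every group grew, per the protocols in the labels, in DMEM/F-12 with serum, to which ascorbate, beta-glycerophosphate and an insulin, transferrin and selenium supplement were added for the exposure. The design text asks whether acetate could mediate effects of ethanol on cartilage cell differentiation. Doses, exposure times and what the control cells received are not given in the sources used here, and the labels' treatment protocol describes mouse livers and HepG2 cells, so it was not used. The labels do not say whether the libraries of a group came from separate cultures, so a p-value here reflects the variation among these libraries, which can be technical.

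Matrilins are secreted adaptor proteins of the extracellular matrix. Each is built from von Willebrand factor A domains, which bind other matrix proteins, EGF-like repeats, and a coiled coil through which the chains assemble into oligomers. COMP, also named thrombospondin 5, is a pentamer of the thrombospondin family that binds collagens and matrilins and promotes collagen fibril assembly. Matrilin 1 and matrilin 3 are largely restricted to cartilage and can share oligomers, while matrilin 2 and matrilin 4 also occur in other connective tissues. Mutations of COMP and of matrilin 3 cause multiple epiphyseal dysplasia, a disorder of growth cartilage.

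The genes lie on separate chromosomes of GRCm38, in the GENCODE M21 annotation. Matn1 is at chr4:130944385-130955475 on the plus strand, Matn2 at chr15:34306677-34436273 plus, Matn3 at chr12:8947929-8972028 plus, Matn4 at chr2:164389393-164405160 minus, and Comp at chr8:70373558-70382066 plus. On the opposite strand, Matn2 overlaps 9430069I07Rik and Matn4 overlaps Rbpjl. The overlapping genes had group means of at most 0.0371 and 0.0754 CPM, the level of a gene relative to its library's total after TMM scaling. The library kit was stranded, but whether strand was used in counting is not given.

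Promoters are shown for members that were lower past the threshold after both agents, as far as the table holds them. The 250 bases before the start of Matn1 and before the outer start of Matn4 are printed from RefSeq, build GRCm38.p6, 5′ to 3′ on the gene's strand, with motif matches in capitals. The Matn1 window is chr4:130944135-130944384, plus strand, and the Matn4 window is chr2:164405161-164405410, minus strand.
Matn1: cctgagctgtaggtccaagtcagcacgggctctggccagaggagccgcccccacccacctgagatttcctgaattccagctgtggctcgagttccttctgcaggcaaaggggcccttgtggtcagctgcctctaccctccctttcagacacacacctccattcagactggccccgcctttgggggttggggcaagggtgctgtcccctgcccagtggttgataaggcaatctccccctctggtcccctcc
Matn4: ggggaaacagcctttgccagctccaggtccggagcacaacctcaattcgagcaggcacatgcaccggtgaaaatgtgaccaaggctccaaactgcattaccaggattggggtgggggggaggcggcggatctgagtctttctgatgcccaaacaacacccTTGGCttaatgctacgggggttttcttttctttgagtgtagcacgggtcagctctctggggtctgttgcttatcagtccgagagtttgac

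Both strands were searched for ACAAT and ACAAAG (SOX proteins), TTGGC (nuclear factor I, which also has a longer palindromic motif that contains TTGGC, searched too) and TATAAA. The Matn1 window held none of these letters. The printed Matn4 window held 1 TTGGC, from 90 to 86 bases before the start, and the window of an inner Matn4 start, chr2:164404819-164405068, held none of the motifs. Over 32851 promoter windows of the same length, 41.5% held TTGGC, 27.7% ACAAT, 16.5% ACAAAG, 12.4% TATAAA and 0.0365% the palindromic nuclear factor I motif. Matn3, which was lower past the threshold only after acetate, had 2 TTGGC matches in its own window. Comp and Matn2 had no promoter in the table.

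The cells carried the markers of their label. All 7 chondrocyte markers were detected at a mean of at least 1 CPM, while none of the 4 adipocyte, 3 muscle or 4 leukocyte markers was, with Cfd, Myod1 and Myog at 0 in every library. Markers of other skeletal and vessel cells were also present at that level: 4 of 4 for osteoblasts, 3 of 3 for hypertrophic chondrocytes, 2 of 3 for tendon and 1 of 3 for endothelium. The chondrocyte markers summed to 9864 to 12900 CPM in control, 5113 to 5761 in acetate and 4667 to 5901 in ethanol. The hypertrophic markers summed to 277.3 to 322.6, 80.8 to 110.9 and 110.9 to 122.1 CPM, and the osteoblast markers to 7020 to 8228, 4675 to 7647 and 4406 to 5200. The chondrocyte and hypertrophic sums were lower in every treated library, as the members were, and their part in the results below was not tested. The chondrocyte sum and the hypertrophic sum were each mostly 1 gene. Col2a1 alone averaged 9089, 4346 and 4008 CPM in control, acetate and ethanol. The hypertrophic sum was mostly Col10a1, since Ihh (21.4, 10.4 and 5.05 CPM) and Mmp13 (2.07, 0.608 and 0.587 CPM) were far lower. Tendon markers stayed between 37.5 and 56.5 CPM and endothelial ones were at 1.12 to 1.26 in control, 1.09 to 1.83 in acetate and 1.99 to 2.15 in ethanol. In such bulk samples fewer cells of a type and less RNA per cell cannot be told apart. Libraries of 28.7 to 41.9 M reads were recovered from the table, in which 1 read was worth 0.0231 to 0.0348 CPM. Acetate replicate 2 stood apart: its deviation from the other 2 acetate libraries correlated with transcript GC content across 12723 genes (r = 0.808, a description). Values without it are given for the acetate fold changes and shares of the members, their ratios in acetate against control, and many list counts. They are not given for the neighbouring genes, the nearest patterns or most of the listed genes.

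Per kilobase of the longest transcript, Matn2 and Comp were the most abundant members in control cells. Matn2 stood at 46.4 ± 1.31 CPM per kb (SD, n = 3 here and throughout), Comp at 41.0 ± 5.98, Matn1 at 27.3 ± 1.36, Matn4 at 6.73 ± 0.652 and Matn3 at 0.913 ± 0.196. The gap between Matn2 and Comp was within the spread of Comp, and each lower step exceeded the spread of its neighbours. The same order held in acetate, from Matn2 at 36.6 ± 2.96 to Matn3 at 0.335 ± 0.0545, and in ethanol, from 39.7 ± 2.04 to 0.568 ± 0.122. The place of Matn2 depended on the length used: over the union of its exons, it stood at 26.5 CPM per kb in control, below Comp at 33.4 and Matn1 at 27.3.

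**Figure D1:**
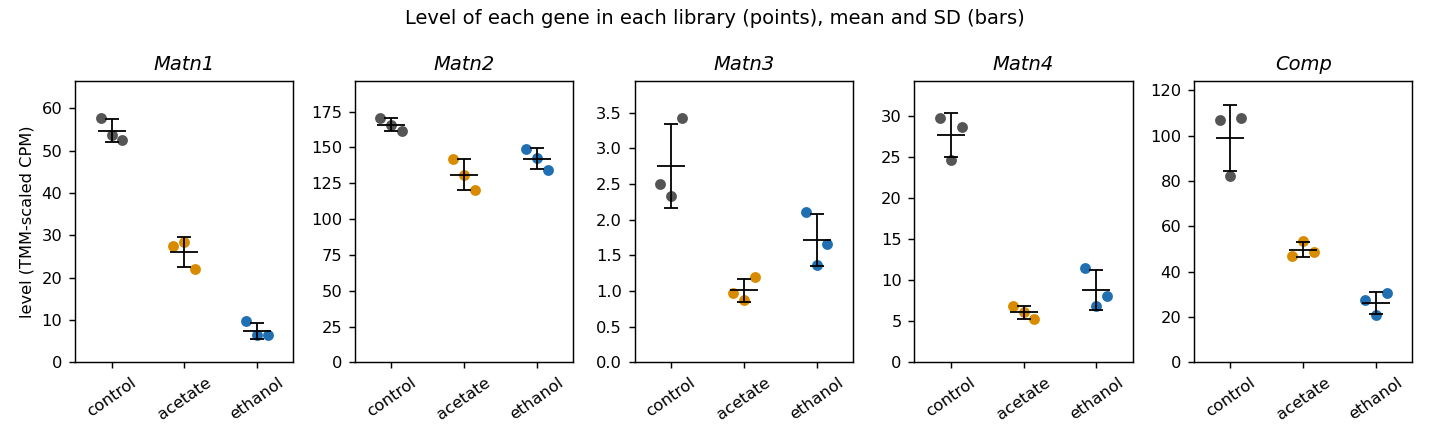
TMM-scaled CPM of the 5 genes by group, with a linear axis from 0 for each gene, 1 point per library, and bars for the mean and SD of 3 libraries. Matn1 and Comp step down from control to acetate to ethanol without overlap, Matn4 and Matn3 are lowest in acetate, and Matn2 stays between 120.5 and 170.7 CPM.

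Most of the family was lower after either agent. With acetate, 4 of the 5 members fell past the threshold (limma, Benjamini-Hochberg adjusted p under 0.05 over all 12868 genes), namely Matn1, Matn3, Matn4 and Comp, and Matn2 did not pass. Over all genes 1.0% were called in either direction and 0.497% were called lower, and 14.6% had an unadjusted p under 0.05. All 5 members had acetate libraries below every control library, against 8.14% of all genes. With ethanol, 3 of the 5 members fell past the threshold, Matn1, Matn4 and Comp, where 3.93% of all genes were called in either direction, 2.45% lower and 1.48% higher, and 19.0% had an unadjusted p under 0.05. All 5 again lay below every control library, against 23.3% of all genes. The median log2 fold change of the members was −0.97 with acetate and −1.57 with ethanol, and that of all genes was −0.01 and −0.00084. Both comparisons use the same control libraries.

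Matn1 encodes matrilin 1, the classical cartilage matrix protein. It stood at 57.8, 53.8 and 52.6 CPM in control replicates 1, 2 and 3, at 27.5, 28.5 and 22.1 CPM in the acetate libraries, and at 9.68, 6.37 and 6.48 CPM in the ethanol libraries. No group overlapped another, and all ethanol libraries were lowest. On the scale of log2(CPM + 1), on which all fold changes here are given, Matn1 fell by 1.05 ± 0.165 (SE) with acetate (limma adjusted p = 0.0253) and by 2.73 ± 0.165 with ethanol (limma adjusted p = 3.9e-04). The ethanol mean was 13.7% of control, and its fold change was rank 2 from the lowest of 12868 genes. The acetate mean was 47.6% of control, at rank 75. Direct comparison of the agents gave a level 1.68 higher in acetate on the log2 scale (limma adjusted p = 0.00154), or 1.62 without acetate replicate 2 (4.7e-04).

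The acetate call of Matn1 depended on the libraries used. Without acetate replicate 2 its log2 fold change was −1.12 (adjusted p = 0.00688), but the call was lost without control replicate 1, 2 or 3 (adjusted p = 0.158, 0.0999 and 0.101), without acetate replicate 3 (0.0769) without ethanol replicate 3 (0.05), or with only the 6 acetate and control libraries in the fit (0.0833). Over 18 alternative settings the adjusted p ran from 0.00018 to 0.16 for acetate and from 3.2e-06 to 0.0064 for ethanol, whose call held in all 18.

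Comp encodes the pentameric bridge between collagen fibrils and matrilins. Its levels were 107, 82.4 and 108 CPM in control, 46.9, 53.6 and 48.7 CPM in acetate, and 27.4, 20.9 and 30.4 CPM in ethanol. The groups were ordered as for Matn1, with no overlap, and control replicate 2 was the lowest control. Comp fell by 0.97 ± 0.163 on the log2 scale with acetate (limma adjusted p = 0.0312) and by 1.88 ± 0.163 with ethanol (limma adjusted p = 0.00107), the latter at rank 13 from the lowest. The acetate mean was 50.2% and the ethanol mean 26.5% of control. Acetate was 0.91 higher than ethanol (limma adjusted p = 0.0163), or 0.86 without acetate replicate 2 (0.00876).

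For Comp too, the ethanol call held in all 18 alternative settings (adjusted p from 3.9e-06 to 0.011) and the acetate call did not (6.4e-05 to 0.18). Without acetate replicate 2 the acetate log2 fold change was −1.03 (adjusted p = 0.00918). The acetate call was lost without control replicate 1, 2 or 3 (adjusted p = 0.182, 0.0600 and 0.125), without acetate replicate 1 or 3 (0.0559 and 0.0933), without ethanol replicate 1 or 3 (0.067 and 0.05), and with only the 6 acetate and control libraries (0.109). The difference between the agents was lost without ethanol replicate 1 or 2 (adjusted p = 0.0606 and 0.0772), with the GC trend removed (0.0552) and with only the 6 treated libraries (0.0635).

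Matn4 encodes matrilin 4, the member that differed most from control in acetate. It was measured at 29.8, 24.7 and 28.6 CPM in control, 6.88, 6.17 and 5.28 CPM in acetate, and 11.5, 6.83 and 8.03 CPM in ethanol. Both treated groups lay below every control library, and they overlapped each other slightly, since ethanol replicate 2 was under acetate replicate 1. The fall was 2.01 ± 0.180 on the log2 scale with acetate (limma adjusted p = 0.00422, rank 5 from the lowest) and 1.57 ± 0.180 with ethanol (limma adjusted p = 0.0032, rank 29). The means were 22.1% and 31.8% of control. The agents differed by −0.44 (95% interval −0.84 to −0.03), which did not pass after adjustment (limma adjusted p = 0.210). Among the 18 alternative settings first chosen, this difference passed, lower in acetate, only with the replicate block and the GC trend removed together (−0.55, limma adjusted p = 0.00591). Without ethanol replicate 1 it was −0.25 (limma adjusted p = 0.429) and without acetate replicate 2 −0.45 (0.17). Without acetate replicate 2 the acetate fold change was −2.02 (adjusted p = 0.00136), and without control replicate 3 the acetate adjusted p was 0.0524, the only 1 of 18 alternative settings that ended that call (adjusted p from 3.1e-05 to 0.052).

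Matn3 encodes matrilin 3, the partner of matrilin 1 in mixed oligomers. It was the least abundant member, with 30 to 135 recovered reads per library. Levels were 2.5, 2.33 and 3.43 CPM in control, 0.965, 0.873 and 1.19 CPM in acetate, and 2.10, 1.37 and 1.66 CPM in ethanol. All 3 groups were separate, with acetate lowest. Matn3 fell by 0.89 ± 0.151 on the log2 scale with acetate (limma adjusted p = 0.0320), to 36.7% of the control mean, and the added 1 CPM makes this log2 value smaller than that ratio. With ethanol the log2 fold change was −0.47 ± 0.151, an interval of −0.81 to −0.13 (limma adjusted p = 0.133), and the ethanol mean was 62.1% of control.

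The acetate call of Matn3 was lost in 9 of the 18 alternative settings, against 8 for Comp, 6 for Matn1 and 1 for Matn4. Without acetate replicate 2 the acetate fold change was −0.84 (adjusted p = 0.0220) and the ethanol one passed, at −0.47 (adjusted p = 0.0450). Leaving out any of the 8 other libraries ended the acetate call, with adjusted p values from 0.0533 to 0.143, as did fitting only the 6 acetate and control libraries (0.128).

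Matn2 encodes matrilin 2, the member with the widest tissue distribution. Its levels were 171, 166 and 161 CPM in control, 142, 131 and 121 CPM in acetate, and 149, 143 and 134 CPM in ethanol. Every treated library lay under every control library, by a small margin, and the treated groups overlapped. The log2 fold change was −0.34 ± 0.105 with acetate (95% interval −0.58 to −0.11, limma adjusted p = 0.182) and −0.22 ± 0.105 with ethanol (−0.46 to 0.01, limma adjusted p = 0.286), so Matn2 passed in neither comparison. The means were 79.0% and 85.6% of control, and without acetate replicate 2 the log2 fold changes were −0.34 (adjusted p = 0.0699) and −0.22 (0.0689).

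**Figure D2:**
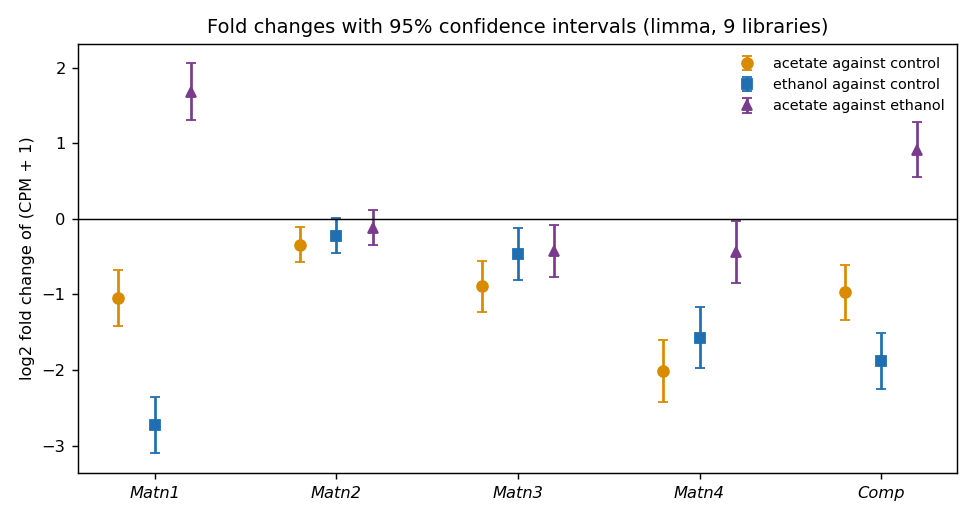
Log2 fold change of each gene in the 3 comparisons on the scale of log2(CPM + 1), with points for the estimate and bars for the 95% interval. Matn1 and Comp lie farthest below 0 with ethanol (−2.73 and −1.88), and Matn4 with acetate (−2.01).

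In the direct comparison of the agents, 2 of the 5 members passed, Matn1 and Comp, both higher in acetate. Over all genes 3.73% were called in either direction and 2.84% higher, and 21.1% had an unadjusted p under 0.05. Matn3 had a log2 difference of −0.43 ± 0.151 (limma adjusted p = 0.163) and Matn2 of −0.12 ± 0.105 (limma adjusted p = 0.491). Matn1 and Comp were higher in every acetate than in every ethanol library, as were 15.3% of all genes, and Matn3 was lower without overlap, as were 12.5%.

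Proportions between members were compared within each library, as differences of log2(CPM + 1) values. The ratio of Matn1 to Matn4 on the log2 scale was 0.93, 1.09 and 0.85 in control, 1.86, 2.04 and 1.88 in acetate, and −0.23, −0.09 and −0.27 in ethanol. The group means differed from control by 0.96 in acetate and by −1.16 in ethanol, and no group overlapped another. Each difference reached p = 0.10 in a two-sided exact permutation test, the smallest p that 3 against 3 libraries allow, and 0.129 after Benjamini-Hochberg adjustment over the 18 ratio comparisons made.

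Matn1 and Matn3 encode the pair that can share oligomers. Their log2 ratio was 3.90 ± 0.265 in control, 3.75 ± 0.307 in acetate and 1.64 ± 0.146 in ethanol. The acetate values overlapped those of control (two-sided exact permutation p = 0.50). Their difference of −0.16 became 0.28 with a pseudocount of 0.1 CPM and −0.49 with the GC trend removed. Ethanol differed from control by −2.26 without overlap (p = 0.10 in the exact permutation test, adjusted 0.129).

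Comp served as the common partner of 4 further ratios. Matn1 to Comp was −0.84 ± 0.211 in control and −0.91 ± 0.179 in acetate, which overlapped, and −1.68 ± 0.344 in ethanol, which did not. Matn4 to Comp was −1.80 ± 0.0896 in control, −2.84 ± 0.205 in acetate and −1.49 ± 0.310 in ethanol. Its acetate libraries lay below all control libraries, while those of ethanol overlapped control. Matn2 to Comp was 0.75 ± 0.221 in control, 1.38 ± 0.170 in acetate and 2.41 ± 0.302 in ethanol, with no overlap. Matn3 to Comp was −4.74 ± 0.181, −4.66 ± 0.188 and −3.32 ± 0.208. Its small acetate difference of 0.08 turned to −0.37 with a pseudocount of 0.1 CPM and to 0.45 with the GC trend removed. Acetate differed from control, without acetate replicate 2, by 0.91 for Matn1 to Matn4, −0.27 for Matn1 to Matn3, −0.09 for Matn1 to Comp, −0.997 for Matn4 to Comp, 0.68 for Matn2 to Comp and 0.18 for Matn3 to Comp.

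**Figure D3:**
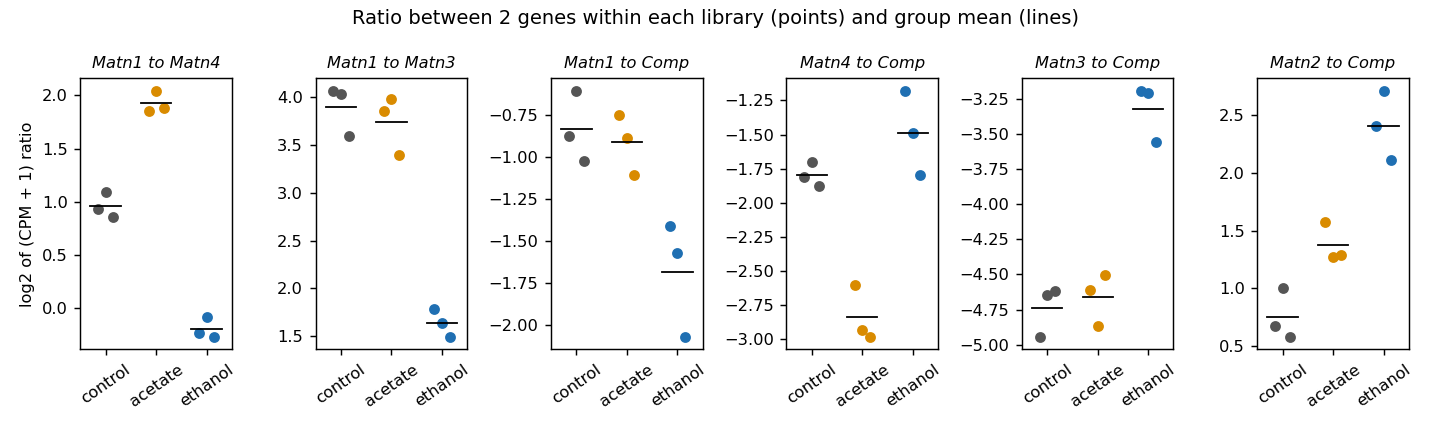
Log2 ratio between 2 members in each library for the 6 pairs compared, as a difference of log2(CPM + 1) values, with 1 point per library, a line at each group mean and a separate axis range for each pair. Matn1 to Matn4 is higher in acetate (1.86 to 2.04) and lower in ethanol (−0.27 to −0.09) than in control (0.85 to 1.09).

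Summed per kilobase, the 5 transcripts came to 122 ± 7.60 CPM per kb in control, 72.1 ± 4.75 in acetate and 57.0 ± 3.86 in ethanol. Without Matn2 the sums were 76.0 ± 7.22, 35.4 ± 2.7 and 17.3 ± 2.98. The share of Matn2 in the family was 38.0% ± 2.28 in control, 50.8% ± 2.06 in acetate and 69.7% ± 3.76 in ethanol. Matn1 held 22.4% ± 1.20, 18.0% ± 1.27 and 6.53% ± 1.17, and Comp held 33.4% ± 3.14, 28.6% ± 2.33 and 19.0% ± 3.25. Matn4 held 5.49% ± 0.203 in control, 2.06% ± 0.161 in acetate and 3.72% ± 0.767 in ethanol. Matn3 held under 1% in every group mean. The acetate shares without acetate replicate 2 were 51.8% for Matn2, 28.1% for Comp, 17.5% for Matn1, 2.08% for Matn4 and 0.511% for Matn3. All shares depend on the transcript length taken for Matn2.

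**Figure D4:**
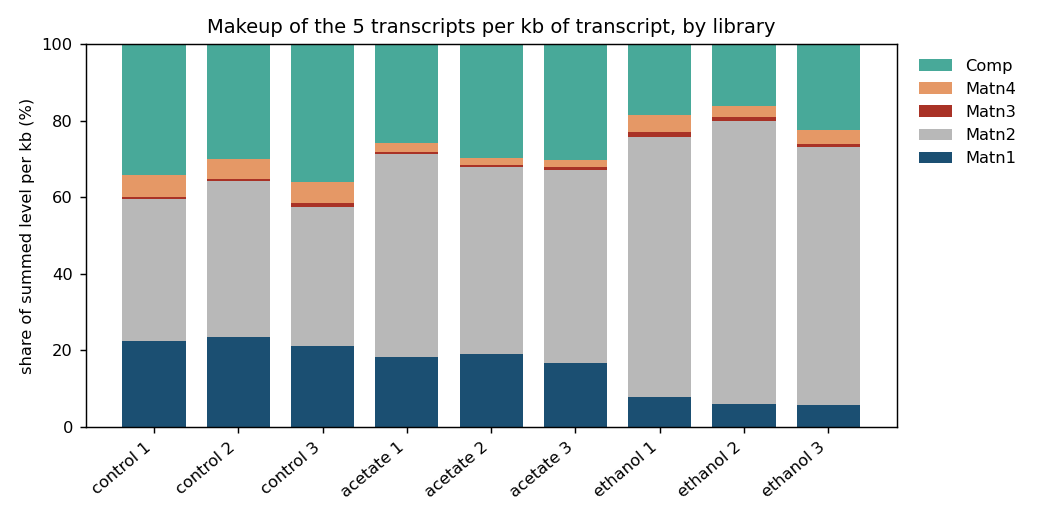
Share of each of the 5 genes in their summed CPM per kb of longest transcript, as 1 stacked bar for each of the 9 libraries. The Matn2 segment averages 38.0% in control, 50.8% in acetate and 69.7% in ethanol.

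The genes most like each member were those with the smallest root mean square difference between centred log2 values over the 9 libraries, in a search limited to genes averaging 5 CPM or more. For Comp these were Ihh (0.156), which encodes the signal Indian hedgehog, Eps8l2 (0.192) and Penk (0.238), which encodes proenkephalin. For Matn1 they were Slpi (0.362), a secreted protease inhibitor, Syt8 (0.394) and again Ihh (0.403). For Matn4 they were Ucma (0.149), a cartilage matrix protein, and the collagen IX chains Col9a1 (0.15) and Col9a2 (0.253). Matn3 was nearest to Ppp1r1b (0.131), Dock8 (0.143) and Slc26a2 (0.157), the sulfate transporter of cartilage. Matn2 was nearest to Anxa7 (0.0576), Mthfd1l (0.0577) and Rftn2 (0.0600), none of which passed in any comparison. Between members the same measure was 0.285 for Matn2 and Matn3, 0.436 for Matn1 and Comp, and 0.872 for Matn1 and Matn4. The added 1 CPM shrinks the changes of a gene as low as Matn3, so its distances to Matn2 and to other genes depend on it. With a pseudocount of 0.1 CPM, the acetate log2 fold change was −1.35 for Matn3 and −0.34 for Matn2.

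Neighbouring genes were examined after their values were seen. Slpi, the gene nearest in pattern to Matn1, lies 298 bases from Matn4 on the same strand. Its means were 81.2 ± 16.9 CPM in control, 44.5 ± 11.5 in acetate and 20.1 ± 7.5 in ethanol, with log2 fold changes of −0.87 (limma adjusted p = 0.194) and −1.99 (limma adjusted p = 0.00578). Between the agents, neither Slpi (1.13, limma adjusted p = 0.0563) nor Matn4 passed. Laptm5, 8.24 kb before Matn1, had a log2 fold change of −1.19 with ethanol (limma adjusted p = 0.00457) and 0.19 with acetate (limma adjusted p = 0.510). Crtc1, 289 bases from Comp, and Wdr35, 1.86 kb from Matn3, did not pass against control. Each matrilin gene shares its chromosome with a syndecan gene, and none of Sdc1, Sdc2, Sdc3 and Sdc4 passed against control. Between the agents, 2 genes near Matn1 were higher in acetate, as Matn1 was: Laptm5 (1.38, limma adjusted p = 0.00276) and Sdc3 (0.69, limma adjusted p = 0.0339), which lies 118.1 kb away. The other neighbours tested did not pass between the agents.

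Matrix partners of the matrilins and COMP were described from a list of 12 genes. With acetate 4 fell and 1 rose, with ethanol 6 fell, and the list medians were −0.97 and −0.85. For this and the lists below, the share called over all genes was 1.0% with acetate, 3.93% with ethanol and 3.73% between the agents. An unadjusted p under 0.05 was reached by 14.6%, 19.0% and 21.1% of all genes. The collagen IX chains, whose fibril-surface collagen binds both protein families, fell with both agents. Col9a2 went from 21.9 CPM in control to 3.57 in acetate (log2 fold change −2.33, limma adjusted p = 0.00754) and 5.23 in ethanol (−1.93, limma adjusted p = 0.00535). Col9a1 changed by −1.83 (limma adjusted p = 0.00686) and −1.36 (limma adjusted p = 0.00704), and Col9a3 by −1.66 (limma adjusted p = 0.00707) and −0.78 (limma adjusted p = 0.0481). The ethanol call of Col9a3 was lost in 10 of 18 alternative settings (limma adjusted p from 0.0025 to 0.21). The acetate call of each chain was lost without control replicate 1 and without control replicate 3. Col2a1, the main cartilage collagen, fell from 9089 to 4346 CPM with acetate (−1.06, limma adjusted p = 0.0166) and 4008 with ethanol (−1.18, limma adjusted p = 0.00478). Its acetate call was lost without control replicate 1 or 3 (adjusted p = 0.125 and 0.0969) or acetate replicate 3 (0.0583), and with only the 6 libraries compared. Both calls were lost with no filter on low genes (0.244 and 0.123).

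Proteoglycan and fibulin partners followed. Dcn, the small proteoglycan decorin, fell with ethanol (−1.76, limma adjusted p = 0.00662) and had −1.03 with acetate (limma adjusted p = 0.0934), and the agents did not differ past the threshold (0.73, limma adjusted p = 0.146). Acan, the proteoglycan aggrecan, fell with ethanol (−0.92, limma adjusted p = 0.0268) and had −0.91 with acetate (limma adjusted p = 0.0553), nearly the same size. The acetate change passed with median-of-ratios scaling (adjusted p = 0.0452), without acetate replicate 2 (0.0277) and with the GC trend removed (0.0168). Its ethanol call was lost without control replicate 1 or 3 (adjusted p = 0.135 and 0.0932) or any 1 ethanol library (0.0546 to 0.133), and with no filter on low genes. Fbln1, fibulin 1, rose with acetate from 7.99 to 17.8 CPM (1.03, limma adjusted p = 0.0390). That call, the only higher one of the list against control, was lost in 9 of 18 alternative settings (adjusted p from 0.00067 to 0.2), namely without any 1 control or ethanol library, without acetate replicate 1, with no filter and with only the 6 libraries compared. Between the agents, Col9a3 was lower in acetate, and Fbln1 and Col1a1 were higher. The acetate count of 5 became 8 without acetate replicate 2 and 0 without control replicate 1 or 3. The ethanol count of 6 became 8 without acetate replicate 2 and ran from 4 to 8 with 1 library left out. Between the agents the count of 3 became 6 with the replicate block and 1 without control replicate 1, acetate replicate 1 or any 1 ethanol library.

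Genes of multiple epiphyseal dysplasia include Comp and Matn3 themselves, the collagen IX chains and Slc26a2. Of these 6, 5 fell with acetate and 4 with ethanol, with medians of −1.32 and −1.07. Slc26a2 had −0.71 with acetate (limma adjusted p = 0.0511) and −0.26 with ethanol (limma adjusted p = 0.341). The acetate count of 5 became 6 without acetate replicate 2, 0 without control replicate 1 or 3, and 3 without control replicate 2, acetate replicate 1 or 3, or ethanol replicate 1 or 3. With 1 library left out the ethanol count of 4 ran from 3 to 5. Between the agents 2 passed, 4 with the replicate block, 0 without ethanol replicate 1 or 2, and 1 without control replicate 1, acetate replicate 1 or ethanol replicate 3.

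Of the 3 thrombospondins other than Comp that were tested, none passed by limma in any comparison, with 0 at an unadjusted p under 0.05 for acetate, 3 for ethanol and 2 between the agents, and voom also called 0. Thbs1 stood at 2971 CPM in control, 2947 in acetate and 1959 in ethanol (−0.59 with ethanol, limma adjusted p = 0.0645). Thbs4, which like COMP forms a pentamer, was under the filter at 0.289, 0.987 and 0.0758 CPM, or 2 to 42 reads. Fitted with no filter, Thbs4 was higher in acetate than in control (limma adjusted p = 0.0276) and than in ethanol (limma adjusted p = 0.00462), and ethanol did not differ from control past the threshold (limma adjusted p = 0.139). The ethanol count became 3 without acetate replicate 2, 1 without acetate replicate 3 and 2 with the replicate block, and the count between the agents became 1, 2 and 2.

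The 4 tested genes with von Willebrand factor A domains other than matrilins, Col6a1, Col6a2, Col6a3 and Col12a1, also had 0 calls by limma and by voom. At an unadjusted p under 0.05 there were 1 for acetate, 4 for ethanol and 0 between the agents. Their log2 fold changes with ethanol ran from −0.48 to −0.39, and all 4 passed without acetate replicate 2, as did 1 with acetate and 1 between the agents. The other 5 genes of that list were under the filter.

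Of 8 tested proteases reported to cleave COMP or matrilins, Mmp13, a collagenase, fell with acetate (−0.95, limma adjusted p = 0.0321) and with ethanol (−0.95, limma adjusted p = 0.0144), from 2.07 to 0.608 and 0.587 CPM. Mmp13 met the filter of 1 CPM on the mean of all 9 libraries only through its control level. Its acetate call was lost in 10 and its ethanol call in 5 of 18 alternative settings, and both held with no filter. Adamts1, an aggrecan-degrading protease, fell with ethanol from 189.9 to 96.3 CPM (−0.97, limma adjusted p = 0.0037) and stood at 188.1 in acetate. Between the agents Adamts1 was higher and Mmp19 lower in acetate. The acetate count of 1 became 2 without acetate replicate 1 or 2 and 0 without acetate replicate 3 or any 1 control or ethanol library, and by voom it was 0. The ethanol count of 2 became 4 without acetate replicate 2 and 1 without any 1 control library or ethanol replicate 1 or 2. The count of 2 between the agents became 4 without acetate replicate 2 and 1 without any 1 control or ethanol library or acetate replicate 1.

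Of 9 transcription factors linked to matrilin and COMP promoters, Sox5 fell with acetate (−0.55, limma adjusted p = 0.0422), and none passed with ethanol by limma or voom, with 2 at an unadjusted p under 0.05. Sox5 was also lower in acetate than in ethanol (−0.57, limma adjusted p = 0.0151). Sox9, the main cartilage transcription factor, went from 449 CPM to 301 with acetate (−0.57, limma adjusted p = 0.0658) and 317 with ethanol (−0.50, limma adjusted p = 0.0555). Both changes passed with median-of-ratios scaling (adjusted p = 0.0452 and 0.0379), without acetate replicate 2 (0.0272 and 0.00632) and with the GC trend removed (0.0182 and 0.0222), and the ethanol one with only the 6 libraries compared (0.00523). With the replicate block, which the pairing check allows for ethanol, Sox9 passed there (adjusted p = 0.0216) and the ethanol count was 2. Without acetate replicate 2 the counts were 3 for acetate, 2 for ethanol and 2 between the agents. The acetate count was 0 without any 1 of the 8 other libraries, and that between the agents was 0 without any 1 ethanol library.

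Helpers of folding and secretion are of interest because mutant COMP and matrilin 3 are retained in the endoplasmic reticulum. Of 11, none passed with acetate or between the agents by limma or voom, with 0 and 6 at an unadjusted p under 0.05. With ethanol 3 fell: Serpinh1, the collagen chaperone HSP47 (−0.68, limma adjusted p = 0.0334), Pdia4, a disulfide isomerase (−0.63, limma adjusted p = 0.0246), and Calr, calreticulin (−0.55, limma adjusted p = 0.0307). The ethanol count became 8 without acetate replicate 2, 5 without acetate replicate 3 or with the replicate block, and 0 without any 1 control or ethanol library. The count between the agents became 1 without acetate replicate 2, 2 without acetate replicate 3 and 2 with the replicate block. Among 6 receptors for COMP, none passed against control by limma or voom, with 2 for acetate and 1 for ethanol at an unadjusted p under 0.05. Itga7, the integrin alpha 7 chain, was higher in acetate than in ethanol (1.08, limma adjusted p = 0.0096), a call lost without ethanol replicate 2 and with only the 6 libraries compared. Without acetate replicate 2, 1 receptor passed with ethanol.

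**Figure D5:**
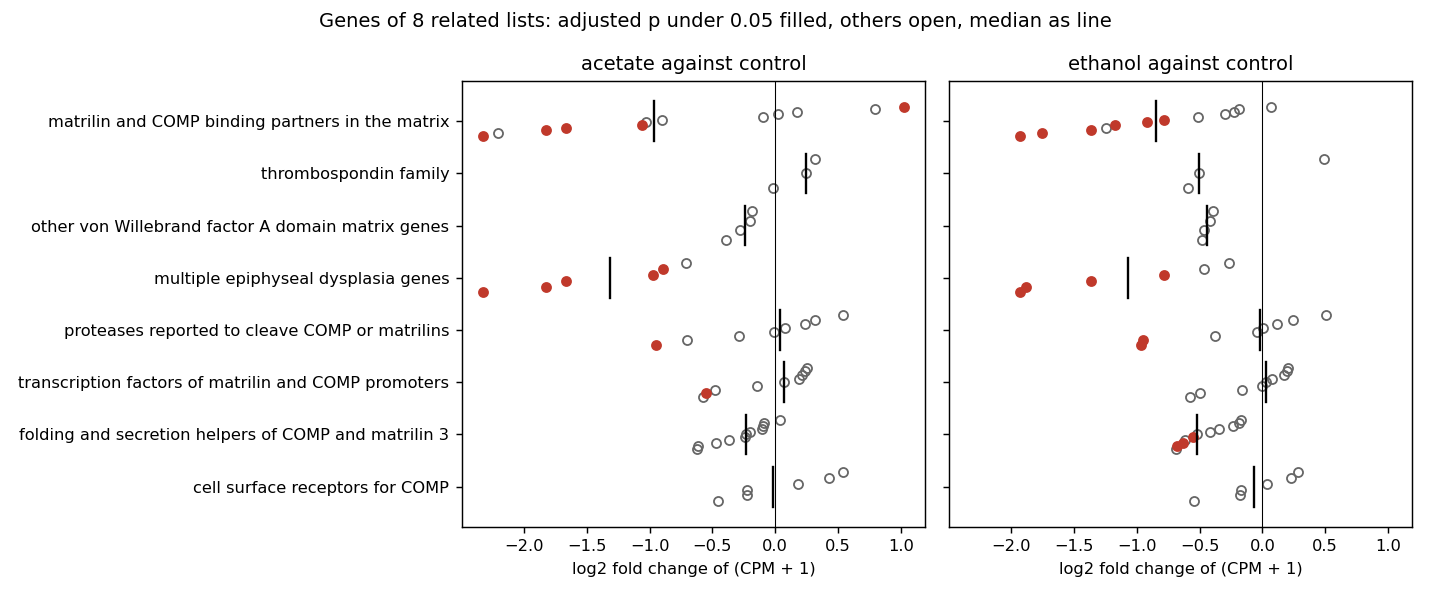
Log2 fold changes of the listed partner, relative, protease, transcription factor, folding and receptor genes on the scale of log2(CPM + 1), by list, with acetate against control on the left and ethanol against control on the right, 1 point per gene (filled where the adjusted p is under 0.05) and a line at each list's median. Col9a2 is the lowest partner in both comparisons with control (−2.33 and −1.93).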

How the data were processed

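A single table of log2 values, normalised by the authors, covers the 9 libraries. The submitters' processing notes name Partek, STAR 2.7.8a, Bowtie2 2.2.5 and mm10 as the build, with no role given. The values were TMM-scaled with an offset of 1e-05 read, as the floor of each library shows, and subtracting the floor gave CPM. When values of 0.5 to 20 reads were turned back into reads, 85.7% to 87.4% came out whole (tolerance 0.02) in each library, so no count model was the main test.

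Genes averaging 1 CPM or more were fitted as log2(CPM + 1) by limma 3.58.1 (R 4.3.3) on all 9 libraries, with a mean for each group, a variance trend and Benjamini-Hochberg adjustment over 12868 genes. The fit was tried on simulated data for ethanol against control with 12868 genes. It recovered 22 of 67 genes changed by 0.5 on the log2 scale, 66 of 67 changed by 1 and 66 of 66 changed by 2. There were 8 false calls. In the sequenced libraries a change above 1 could miss the threshold: Hapln1, a listed matrix partner, had −1.24 with ethanol (limma adjusted p = 0.169). How well the simulated recovery carries over to the 9 libraries was not tested. Replicate numbers come from the labels. Same-numbered libraries correlated in their deviations at 0.554, 0.363 and 0.667 for ethanol and control. Each was above every different-numbered pair (at most 0.247), so these groups look paired by number. The reported fit and the permutation tests do not use that pairing, and the replicate block is an alternative setting only. With the block, the limma adjusted p for ethanol was 0.00191 for Matn1, 0.00266 for Matn4 and 0.00209 for Comp. For acetate and ethanol the values were 0.15, 0.251 and 0.615. Acetate replicate 2 with ethanol replicate 1 reached 0.183, above the lowest of these, so their pairing is not settled. For acetate and control, 0.245, −0.101 and 0.408, with up to 0.262 for different numbers, do not show pairing. The labels number the replicates of every group alike. Correlations with acetate include its replicate 2, which stood apart with GC content, so they cannot decide whether acetate is paired too.

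The members and gene lists were chosen with earlier results of these data known. Named genes were the members, up to 4 called genes per list by size of change, Sox9, Col2a1, Acan, and the 3 genes nearest to each member in pattern. Hapln1 was named as well, for a large change that did not pass. Alternatives covered the pseudocount, filter, scaling, variance trend, voom, GC content, replicate block, a fit of only the 6 libraries compared, and leaving out each library. A further one, the block with acetate replicate 2 left out, was chosen after seeing the data.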

Additional observations from a re-analysis of the deposited data

How the results depend on the processing

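The ethanol falls of Matn1, Matn4 and Comp and the Matn1 difference between the agents passed in all 18 alternative settings first chosen, and no member changed direction in any of them. The acetate calls were less stable: 4 members passed with all 9 libraries, 1 with only the 6 libraries compared, and 0 to 4 with 1 library left out. For ethanol 3 passed, 5 with only the 6 libraries compared, and 3 to 4 with 1 library left out. The number of all genes called moved with the same settings, as given below, so these shifts are not particular to the members. For ethanol it ran from 98 to 2766 of 12868 genes with 1 library left out, and it also rose with only the 6 libraries compared. Between the agents 2 passed, 1 with the GC trend removed, 1 with only the 6 libraries compared, and 1 to 2 with 1 library left out. In the simulation of ethanol against control with 3 libraries per group, 22 of 67 changes of 0.5 on the log2 scale were called, so a missed call at the size of Matn2 or Matn3 with ethanol does not show that the level was unchanged.

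Over all genes, limma called 129 for acetate, 506 for ethanol and 480 between the agents. These counts were 443, 1397 and 991 with the GC trend removed, 293, 1074 and 823 with the replicate block, 1437, 3485 and 2822 with the replicate block and the GC trend removed, and 20, 3443 and 107 with only the 6 libraries compared. Leaving out 1 library gave 0 to 448, 98 to 2766 and 103 to 1108, and the 0, without control replicate 3, came with 1720 genes at an unadjusted p under 0.05. The cause of these shifts was not tested. Removing the GC trend moved the share of lower calls between the agents from 23.8% to 44.6%. With the replicate block 4, 3 and 2 members passed, which changed no member's call. With the block and the GC trend removed 5, 4 and 3 passed, the third between the agents being Matn4, lower in acetate. Matn2 passed with acetate once the GC trend was removed (adjusted p = 0.0488, or 0.0129 with the block), and with ethanol when only the 6 libraries were fitted (0.0386), as did Matn3 (0.0414). For acetate and control, whose numbers are not shown to pair, the block moved the matrix partners from 5 to 9 and the transcription factors from 1 to 2.

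An alternative chosen after seeing the data, the replicate block with acetate replicate 2 left out, called 5, 5 and 4 members and 2773, 6466 and 4262 genes. It left 3 residual degrees of freedom, and limma estimated an infinite prior for the variance, so genes of like level shared 1 variance and its p-values do not reflect each gene's own spread. Against 3.37 prior degrees of freedom in the reported fit, it is listed for completeness and nothing rests on it.

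Of the 5 members, Sox9, Col2a1 and Acan, whose fold changes were followed through every setting, signs reversed for Col2a1 and Acan, both near 0 between acetate and ethanol. The listed genes past the threshold kept their sign in all 18 settings. Col2a1 went from 0.12 to −0.15 with the GC trend removed, with or without the block, and to −0.052 in the added alternative. Acan went from 0.01 to −0.0053 with median-of-ratios scaling, −0.18 with the GC trend removed, with or without the block, −0.0075 without acetate replicate 1, −0.13 without ethanol replicate 2 (−0.13 to 0.11 with 1 library left out) and −0.14 in the added alternative.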
